A study of Homo sapiens with 6 samples.

Results

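The 8 probes described here measure DDIT3, ATF3, TRIB3, SESN2, ASNS, PSAT1, PHGDH and SLC7A11, genes known as targets of the transcription factor ATF4 in the integrated stress response. They were picked by probe identifier, 1 probe for each of 8 genes, out of 47231 probes on an Illumina Human-HT12 bead array, and the platform annotation gave for all 8 the gene named in the rule. The 6 arrays held total RNA of SK-Hep1, an established human liver cancer line: 3 samples labelled siLuc, the control, and 3 labelled siTARDBP, in which TARDBP was knocked down. TARDBP encodes TDP-43, a nuclear RNA-binding protein that acts in splicing and RNA stability. Neither the dose nor the time after transfection nor the number of different siRNAs is stated in the labels, and both groups come from this 1 line. Whether samples of 1 group were separate cultures is not labelled either, so the p-values rest on a spread that may be only technical.

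In the integrated stress response, kinases that sense misfolded protein, amino acid shortage, viral RNA or haem loss phosphorylate the initiation factor eIF2. General translation then slows while the mRNA of ATF4 is translated more. ATF4 turns on genes for amino acid uptake and synthesis, for tRNA charging and for further transcription factors, and the phosphatase subunit PPP1R15A, also named GADD34, closes the loop by removing the phosphate. Much of the control of ATF4 itself is translational, so transcript arrays see it through its targets.

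The knocked-down gene was measured first. The raw intensity of the TARDBP probe was 265, 214 and 203 in siLuc replicates 1 to 3, and 136, 84.0 and 96.5 in siTARDBP replicates 1 to 3. Its normalised log2 level differed by -0.98 (SE 0.11, limma adjusted p = 1.59e-05), which is 1.98-fold lower in siTARDBP, and the groups did not overlap. In siTARDBP it exceeded the background level on 2 of 3 arrays, so part of the fall lies close to the lowest signal that can be read. The background correction compresses the scale there, so the size of the fall is uncertain. With a correction offset of 16 in place of 50 the log2 difference of TARDBP was -1.25. Of 15136 probes above background on at least 3 of 6 arrays, 1696 passed an adjusted p of 0.05 (11.2%), 888 higher (5.87%) and 808 lower (5.34%) in siTARDBP. The total was 953 without siLuc replicate 2 (529 higher, 424 lower), 968 without siTARDBP replicate 3, and 512 and 535 were lower without siLuc replicate 1 and siTARDBP replicate 1. Array medians of raw intensity were 64.4 to 83.0. The background mode was 58.9 and 59.3 on the 2 arrays numbered 2 and between 71.5 and 75.9 on the other 4, so this difference in brightness falls across both groups, and values within each brightness class are given below. Of 8 hepatocyte markers with a probe, ALB and SERPINA1 had a probe above background and APOA1, APOB, TTR, AFP, FGB and TF had none on 3 or more arrays. None of 5 endothelial markers (PECAM1, CDH5, VWF, TEK, KDR) passed that filter. Of 5 mesenchymal markers VIM and THY1 passed it while COL1A1, COL1A2 and FN1 did not. The passing ALB probe lay close to the background level, at raw intensities of 110 to 139. The other ALB probe was not above that level on any array, and SERPINA1 passed on only some of its probes.

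None of the 6 members that could be tested passed the threshold in limma's moderated test, against 11.2% of all tested probes. By their point estimates, 3 had a difference above 0 and 3 below 0, and 1 (SESN2) had an unadjusted p under 0.05, which 25.5% of all tested probes reached. The log2 differences of the 6 ran from -0.084 for PHGDH to 0.23 for SESN2, with a median of 0.050, against -0.0042 over all tested probes. SESN2 was above background on 1 of 3 siLuc and 3 of 3 siTARDBP arrays. It thus entered the test, and these summaries, through the group in which it was higher. The median size of a difference, whatever its sign, was 0.10 for the 6 and 0.12 for all tested probes. Their 95% intervals together spanned 0.810-fold to 1.35-fold of the siLuc level, on a scale that the background correction compresses for dim probes. PSAT1 and SLC7A11 were not above background on any of the 6 arrays and were not tested.

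**Figure D1:**
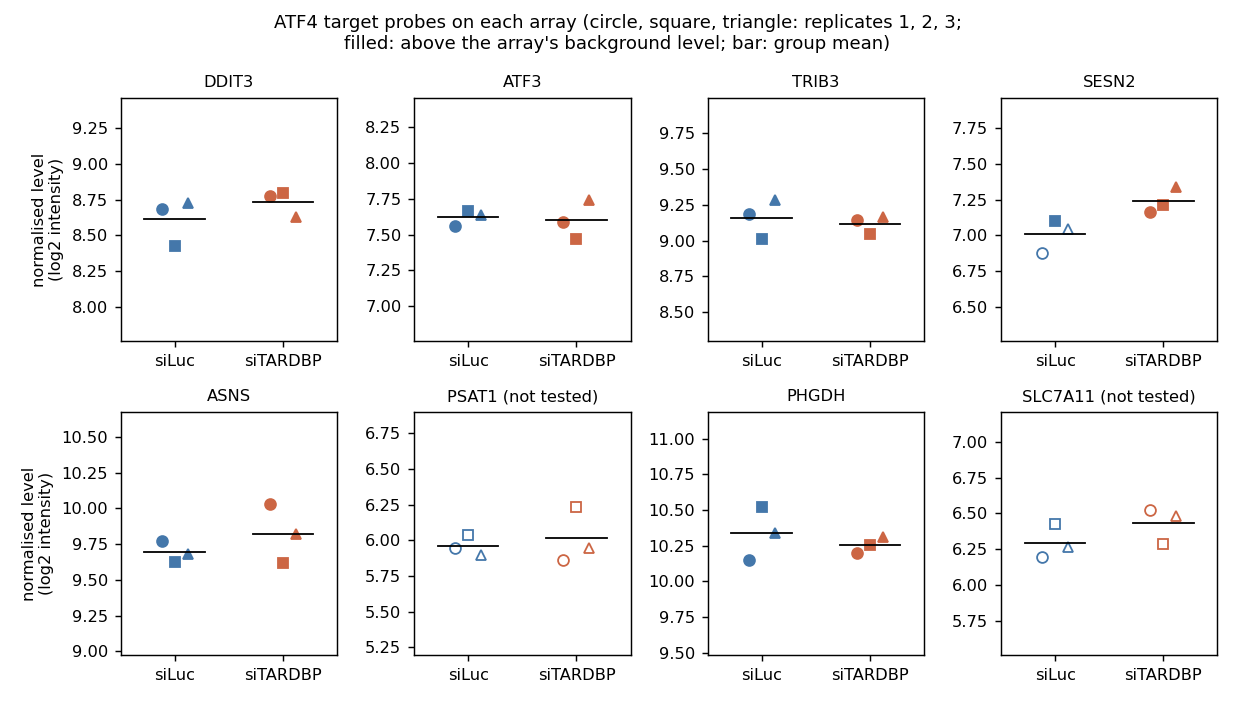
Normalised log2 intensity (vertical axis, equal span in every panel) of the 8 ATF4 target probes on the 3 siLuc and 3 siTARDBP arrays, with a bar at each group mean and open symbols for arrays at or under the background level. The groups overlap in every tested panel except SESN2, and PSAT1 and SLC7A11 have open symbols throughout.

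Among the transcription factors, DDIT3 (probe ILMN_1676984) encodes CHOP, a C/EBP family member that ATF4 induces and that takes part in stress-induced cell death. Its normalised log2 levels were 8.68, 8.42 and 8.73 in siLuc replicates 1 to 3 and 8.78, 8.80 and 8.62 in siTARDBP replicates 1 to 3. The lowest value was siLuc replicate 2, and siTARDBP replicate 3 lay below 2 of the 3 siLuc arrays. The difference was 0.12 (SE 0.10, 95% interval -0.097 to 0.34, limma adjusted p = 0.503). It was 0.37 between the arrays numbered 2 and -0.0041 among the other 4.

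ATF3 (ILMN_2374865) is a basic leucine zipper repressor and activator that is induced early in many stress responses. Its log2 levels were 7.56, 7.67 and 7.64 in siLuc and 7.59, 7.47 and 7.74 in siTARDBP, with the highest and the lowest array both in siTARDBP. The difference was -0.022 (SE 0.098, 95% interval -0.23 to 0.19, limma adjusted p = 0.921), with -0.20 between the arrays numbered 2 and 0.068 among the other 4. The other 2 probes annotated to ATF3 stayed under the background level on all 6 arrays, at raw intensities of 41.2 to 58.9.

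The regulators TRIB3 and SESN2 act downstream of these factors. TRIB3 (ILMN_1787815) encodes a pseudokinase that binds ATF4 and CHOP and dampens their activity. It stood at 9.18, 9.01 and 9.28 on the log2 scale in siLuc and at 9.14, 9.05 and 9.16 in siTARDBP, all 3 siTARDBP arrays lying within the range of the siLuc arrays. The difference was -0.042 (SE 0.098, 95% interval -0.25 to 0.17, limma adjusted p = 0.834), with 0.034 between the arrays numbered 2 and -0.080 among the other 4.

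SESN2 (ILMN_1751598) encodes a sestrin, a leucine-binding inhibitor of mTORC1 signalling that is also known as a target of p53 and NRF2. Its levels were 6.88, 7.10 and 7.04 in siLuc and 7.16, 7.21 and 7.34 in siTARDBP. Every siTARDBP array lay above every siLuc array, as was so in one or the other direction for 29.5% of all tested probes. The difference of 0.23 (SE 0.098, 95% interval 0.024 to 0.44) had an unadjusted p of 0.0306 and a limma adjusted p of 0.147, so it did not pass. It was 0.29 among the 4 brighter arrays and 0.11 between the arrays numbered 2. The probe was dim, exceeding the background level on 1 of 3 siLuc and on all 3 siTARDBP arrays. It entered the test through the group in which it was higher.

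ASNS (ILMN_1796417) encodes asparagine synthetase, which makes asparagine from aspartate and glutamine and is among the best-studied ATF4 targets. The member probe read 9.77, 9.63 and 9.68 on the log2 scale in siLuc and 10.03, 9.62 and 9.82 in siTARDBP. The siTARDBP arrays included the highest and the lowest of the 6 values. The difference was 0.13 (SE 0.11, 95% interval -0.099 to 0.36, limma adjusted p = 0.493), with 0.20 among the 4 brighter arrays and -0.0077 between the arrays numbered 2.

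A second probe annotated to ASNS (ILMN_2398107) gave a clearer separation. It read 8.99, 9.15 and 9.05 in siLuc and 9.32, 9.38 and 9.44 in siTARDBP. As for 29.5% of all tested probes, in one or the other direction, its groups did not overlap, and every siTARDBP array was higher. It was 1.25-fold higher in siTARDBP (log2 difference 0.32, SE 0.093, 95% interval 0.12 to 0.51, limma adjusted p = 0.0366) and passed the threshold, with 0.36 among the 4 brighter arrays and 0.23 between the arrays numbered 2. The call was lost when any single array was left out, at adjusted p between 0.0549 and 0.13, and among the 4 brighter arrays (0.0974). The 2 probes' log2 differences were 0.19 apart, and an exact two-sided permutation test of the within-array gap gave p = 0.3, where 3 arrays against 3 cannot go below 0.1.

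**Figure D2:**
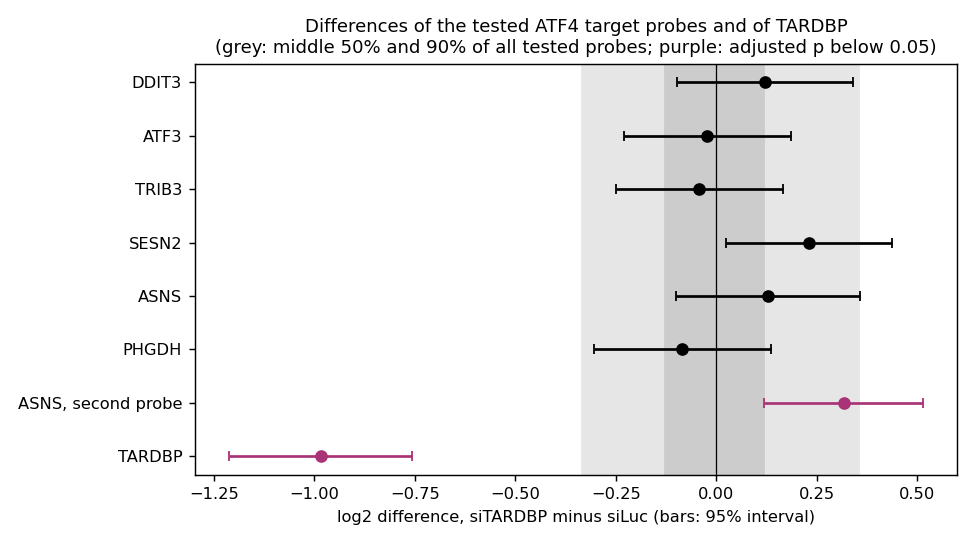
Log2 difference between siTARDBP and siLuc (horizontal axis) with 95% intervals for the 6 tested members, the second ASNS probe and TARDBP, over grey bands for the middle 50% and 90% of all 15136 tested probes. The 6 members lie between -0.084 and 0.23, inside the wider band, and TARDBP lies at -0.98.

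ASNS is also a member gene with a promoter window that carries the letters TGATGNAA. These are the core of the C/EBP-ATF response element to which ATF4 binds with a C/EBP partner. The letters were searched on both strands in RefSeq windows running from 250 bases before to 50 after each transcript start (GRCh38.p14). Windows were found for 7 of the 8 member genes, 12 in all because some genes have several starts, and 2 windows of 2 genes held a match, ASNS and ATF3. ASNS and ATF3 each also have a window at another start that held none. Across all 35116 windows of these RefSeq promoters, 3.62% held a match, and of 27305 genes 4.46% had a match in any window. The ASNS window is chr7:97872359-97872658 on the minus strand, with the match 68 to 61 bases before the start. The ATF3 window is chr1:212565157-212565456 on the plus strand, with the match 191 to 184 bases before the start. Both are shown because they let the element be read beside the values above, with the matched letters in capitals.
ASNS: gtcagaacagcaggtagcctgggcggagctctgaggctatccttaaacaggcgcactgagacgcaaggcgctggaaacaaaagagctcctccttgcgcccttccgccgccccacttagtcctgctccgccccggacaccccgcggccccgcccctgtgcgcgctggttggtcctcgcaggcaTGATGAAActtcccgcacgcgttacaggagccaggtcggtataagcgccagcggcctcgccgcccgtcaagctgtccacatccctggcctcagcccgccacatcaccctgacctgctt
ATF3: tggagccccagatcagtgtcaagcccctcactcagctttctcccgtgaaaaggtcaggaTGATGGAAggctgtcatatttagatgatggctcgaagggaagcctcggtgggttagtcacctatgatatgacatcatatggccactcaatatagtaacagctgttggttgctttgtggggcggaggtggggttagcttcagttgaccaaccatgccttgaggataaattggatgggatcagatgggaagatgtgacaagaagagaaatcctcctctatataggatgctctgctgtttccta
A match describes letters in this window and no more. Neither the member probe of ASNS nor that of ATF3 passed the threshold.

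PHGDH (ILMN_1704537) and PSAT1 (ILMN_1692938) catalyse the first and second steps of serine synthesis from a glycolytic intermediate. PHGDH was bright, at log2 levels of 10.15, 10.52 and 10.34 in siLuc and 10.20, 10.25 and 10.31 in siTARDBP, with siLuc replicate 2 highest and siLuc replicate 1 lowest. The difference was -0.084 (SE 0.10, 95% interval -0.30 to 0.14, limma adjusted p = 0.668), and it was 0.0086 among the 4 brighter arrays and -0.27 between the arrays numbered 2. On the PSAT1 probe, raw intensity was 47.8, 48.8 and 46.0 in siLuc, and 45.1, 55.4 and 48.4 in siTARDBP, all under the background levels of 81.4 to 128. A second PSAT1 probe lay between 40.5 and 49.9 on the 6 arrays. PSAT1 signal was thus not well above background in either group, and no fold is given.

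SLC7A11 (ILMN_1655229) encodes xCT, the cystine importer that feeds glutathione synthesis and is known as a target of both ATF4 and NRF2. Its raw intensity was 60.6, 62.4 and 68.0 in siLuc, and 84.7, 57.1 and 79.6 in siTARDBP. None reached the background level of its own array, so no fold is given here either. Raw values are not adjusted for array brightness, and the lowest was on siTARDBP replicate 2, a dimmer array. After normalisation the log2 levels were 6.19, 6.42 and 6.27 in siLuc and 6.53, 6.29 and 6.48 in siTARDBP, lowest on siLuc replicate 1.

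The 6 tested members did not move as a block across arrays. Of their 15 pairs, 10 had a Pearson correlation above 0 over the 6 arrays, with a median of 0.16 and a range from -0.79 to 0.51. Their mean centred log2 level ran from -0.062 on siLuc replicate 1 to 0.067 on siTARDBP replicate 3, and siTARDBP replicate 2 lay at -0.034 beside siLuc replicate 2 at -0.041. All 15136 tested probes except the members were searched for those most like this mean profile, by Pearson correlation over the 6 arrays. The 3 highest were those of SEC22C (0.9992), MRPL18 (0.992) and SNORA3A (0.988), none of which passed the threshold. Values this high can arise from searching so many probes over only 6 arrays, where all probes on 1 array share its RNA and hybridisation. Shared regulation was not tested.

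The rest of the pathway was read from 7 lists of 54 genes without the members. Of these, 44 genes had a tested probe and 7 passed in at least 1 probe (15.9%), 2 higher and 5 lower, against 13.8% of all 9316 genes tested (6.91% higher, 6.98% lower). The median log2 difference over their 52 tested probes was -0.042, against -0.0042 over all tested probes. The share is near the background. The count of 7 fell to 2 without siLuc replicate 2, to 3 without siLuc replicate 1 or without siTARDBP replicate 3, and to 4 without siTARDBP replicate 1.

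ATF4 itself had 3 tested probes, and none passed. The brightest, with a mean raw intensity of 6908 in siLuc against 6170 in siTARDBP, differed by -0.031 on the log2 scale (SE 0.097, limma adjusted p = 0.883). The second differed by 0.24 (adjusted p = 0.133) and the dimmest by -0.063 (adjusted p = 0.74). None of the 6 genes for the eIF2 kinases EIF2AK1 to EIF2AK4, eIF2 alpha and an eIF2B subunit passed, with log2 differences from -0.21 to 0.15. Of all tested genes 13.8% passed.

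The largest fall in these lists was that of ATF5, a close relative of ATF4 whose translation is controlled by eIF2 in a like way. Its log2 levels were 7.87, 7.80 and 7.94 in siLuc and 7.09, 7.09 and 7.10 in siTARDBP. Its groups did not overlap, as for 29.5% of all tested probes. In siTARDBP its raw intensity was 140.1, 103.2 and 119.8, against background levels of 115.5, 81.5 and 118.2 on the same arrays. The siTARDBP values thus lie close to the lowest signal that can be read, where the background correction compresses the scale. The size of the fall and the small spread in siTARDBP are therefore uncertain, and with an offset of 16 the log2 difference was -0.965. ATF5 was 1.71-fold lower in siTARDBP (log2 difference -0.78, SE 0.091, limma adjusted p = 2.77e-05), with -0.81 among the 4 brighter arrays and -0.71 between the arrays numbered 2. Among the other factors, CEBPB differed by -0.023 and CEBPG by 0.041, neither passing.

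In the list of feedback phosphatase subunits, which holds only 2 genes, both had a probe that passed and was lower. Of all tested genes 13.8% passed in either direction and 6.98% in that direction. PPP1R15A, the stress-induced subunit, stood at log2 levels of 10.55, 10.45 and 10.39 in siLuc and 10.03, 10.17 and 10.15 in siTARDBP. Its groups did not overlap, as for 29.5% of all tested probes. It was 1.27-fold lower (log2 difference -0.35, SE 0.094, limma adjusted p = 0.024), with -0.38 among the 4 brighter arrays and -0.28 between the arrays numbered 2. PPP1R15B, the constitutive subunit, was 1.35-fold lower on 1 probe (log2 difference -0.44, SE 0.11, limma adjusted p = 0.0151; -0.55 among the 4 brighter arrays and -0.22 between the other 2) and differed by -0.035 on its other probe (adjusted p = 0.884). Both PPP1R15B probes exceeded the background level on 2 of 3 siTARDBP arrays. Neither gene passed when siLuc replicate 1, siLuc replicate 2, siTARDBP replicate 1 or siTARDBP replicate 3 was left out, at adjusted p between 0.0533 and 0.0964. PPP1R15A also did not pass among the 4 brighter arrays (adjusted p = 0.0931).

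**Figure D3:**
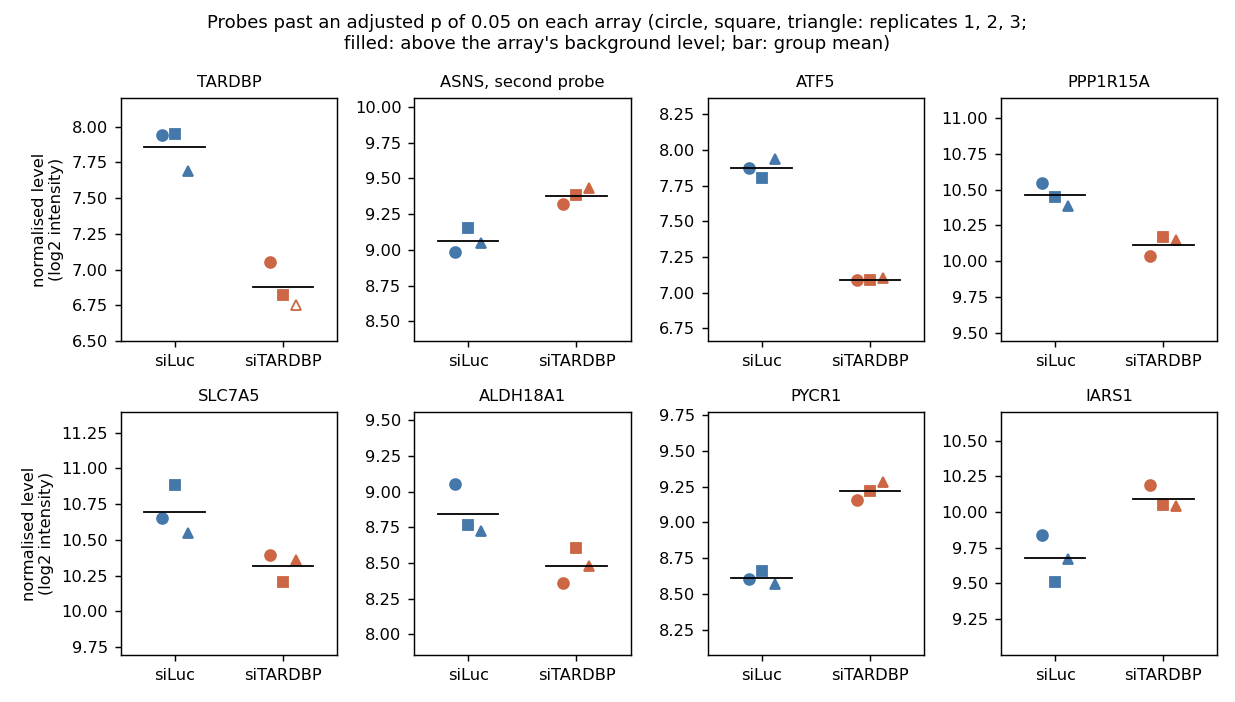
Normalised log2 intensity (vertical axis, equal span in every panel) on each array for TARDBP, the second ASNS probe and 6 pathway genes. These are 6 of the 7 pathway genes with a probe past an adjusted p of 0.05. Choosing panels by that threshold favours groups that do not overlap. The siLuc and siTARDBP arrays do not overlap in any panel, as was so for 29.5% of all tested probes. Among the panels, ATF5 and PYCR1 have the largest differences of means after TARDBP.

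Of the amino acid transporters, SLC7A5, the light chain of the leucine importer LAT1, fell 1.30-fold. Its log2 levels were 10.65, 10.89 and 10.55 in siLuc and 10.40, 10.20 and 10.36 in siTARDBP (log2 difference -0.38, SE 0.11, limma adjusted p = 0.0291). The difference was -0.22 among the 4 brighter arrays, where it did not pass (adjusted p = 0.289), and -0.69 between the arrays numbered 2. The call was also lost without siLuc replicate 1 or 2 or siTARDBP replicate 2 or 3, at adjusted p between 0.0561 and 0.155. SLC3A2, the heavy chain that partners both SLC7A5 and SLC7A11, differed by 0.26 and 0.021 on its 2 probes, with adjusted p of 0.169 and 0.923; the first passed without siTARDBP replicate 2 (0.37, adjusted p = 0.0412). SLC7A1, SLC38A2 and SLC1A5 differed by between -0.098 and 0.17 and did not pass.

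In amino acid and one-carbon synthesis 2 of 8 tested genes passed (25%), 1 higher and 1 lower, against 13.8% of all tested genes. PYCR1, which makes proline in its last step, read 8.60, 8.66 and 8.57 in siLuc and 9.16, 9.22 and 9.28 in siTARDBP. It rose 1.53-fold (log2 difference 0.61, SE 0.091, limma adjusted p = 0.000318), by 0.63 among the 4 brighter arrays and by 0.56 between the arrays numbered 2, and its second tested probe was 0.35 higher at an adjusted p of 0.0542. That dim probe exceeded the background level on 1 of 3 siLuc and 3 of 3 siTARDBP arrays, so it entered the test through the group in which it was higher. ALDH18A1, which acts earlier in the same pathway, fell 1.29-fold (log2 difference -0.36, SE 0.11, limma adjusted p = 0.0375), by a log2 difference of -0.47 among the 4 brighter arrays and of -0.16 between the other 2. It did not pass without siLuc replicate 1 or 2 or siTARDBP replicate 1 or 3, at adjusted p between 0.0754 and 0.173. Nor did ALDH18A1 pass among the 4 brighter arrays (adjusted p = 0.071) or with the brightness class as a block (0.0507). MTHFD2, the mitochondrial folate enzyme, was 0.30 higher on the log2 scale and did not pass (limma adjusted p = 0.0579). Its groups did not overlap, as was so for 29.5% of all tested probes. SHMT2 differed by -0.20 (limma adjusted p = 0.184).

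Among the aminoacyl-tRNA synthetases, which ATF4 is known to raise together, 1 of 11 tested genes passed (9.09%), against 13.8% of all tested genes. IARS1, the isoleucyl enzyme, was 1.33-fold higher (log2 difference 0.42, SE 0.10, limma adjusted p = 0.0143), with 0.36 among the 4 brighter arrays and 0.54 between the arrays numbered 2. It did not pass among the 4 brighter arrays (adjusted p = 0.117), without siLuc replicate 2 (0.0914) or without siTARDBP replicate 1 (0.0617). The 12 tested probes of the list had a median log2 difference of -0.037. None of 8 tested genes in the list of other ATF4 or CHOP targets passed, against 13.8% of all tested genes. Among them were DDIT4 at -0.11 and STC2 at -0.029. CHAC1, a glutathione-degrading enzyme and a sensitive marker of ATF4 activity, was under the background level on all 6 arrays, with a mean raw intensity of 60.1 in siLuc against 59.3 in siTARDBP.

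**Figure D4:**
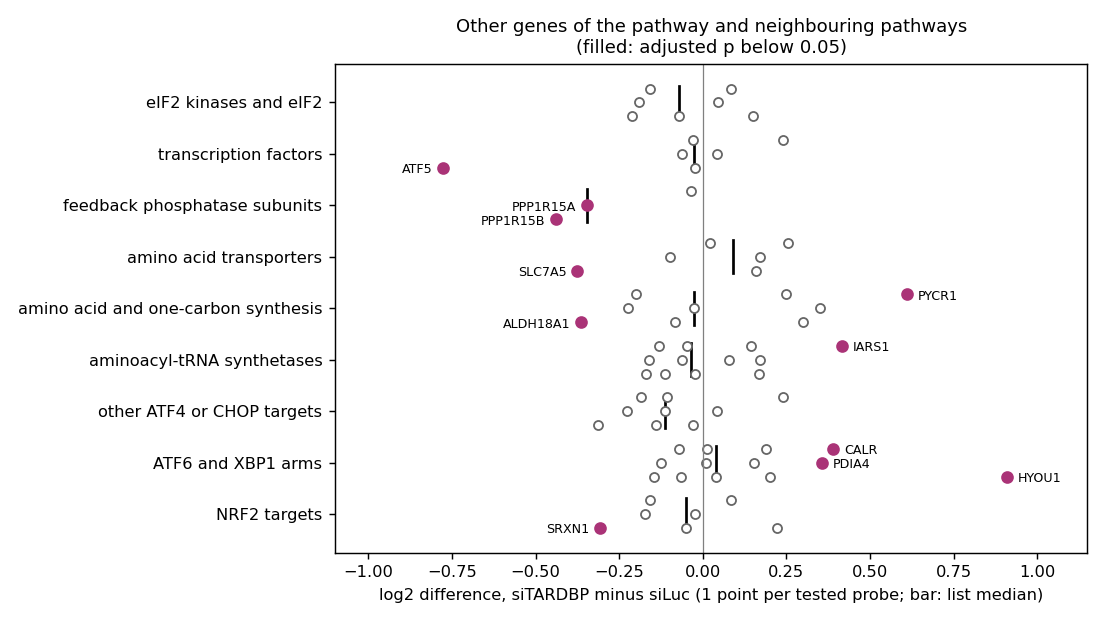
Log2 difference between siTARDBP and siLuc (horizontal axis) for each tested probe of the 7 pathway lists and of the ATF6, XBP1 and NRF2 lists, with a bar at the list median and filled points past an adjusted p of 0.05. Most probes lie near 0, while ATF5 lies at -0.78, PYCR1 at 0.61 and HYOU1 at 0.91.

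Neighbouring stress pathways were read in the same way. Of 11 tested genes in the ATF6 and XBP1 arms of the unfolded protein response, 3 passed (27.3%), all higher. Of all tested genes 13.8% passed in either direction and 6.91% were higher. The list median was 0.039. HYOU1, an endoplasmic reticulum chaperone, rose 1.88-fold on 1 probe (log2 difference 0.91, SE 0.10, limma adjusted p = 1.78e-05) and differed by 0.20 on the other (adjusted p = 0.297). CALR rose by 0.39 and PDIA4 by 0.36 on the log2 scale, with limma adjusted p of 0.0101 and 0.0349. CALR did not pass without siTARDBP replicate 3 (adjusted p = 0.0545) or among the 4 brighter arrays (0.0648). PDIA4 did not pass with any single array other than siTARDBP replicate 2 left out (0.069 to 0.153). HSPA5, the chaperone most often used to mark this response, differed by -0.066 (SE 0.10, limma adjusted p = 0.737). Of 5 tested NRF2 targets, SRXN1 passed (20%, against 13.8% of all tested genes) and was lower, by a log2 difference of -0.31 (adjusted p = 0.0446, and 0.0505 to 0.155 with any single array left out, 0.0532 with the brightness class as a block), while HMOX1 differed by -0.17 and NQO1 had no tested probe. RNA of whole cultures cannot tell fewer expressing cells from less transcript per cell for any of these values.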

How the data were processed

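The deposited table holds linear probe intensity values that were not normalised. Per the labels, the authors wrote it with BeadStudio. The authors' series matrix holds log2 values whose distribution is the same on all 6 arrays, and its normalization method is not stated. It was used as an alternative. Genes were named through the platform annotation, which gave 1 symbol for 30113 of 47231 probes, several for 8 and did not list 17110. After normexp correction (offset 50) and quantile normalisation, log2 values were tested with limma's lmFit and eBayes (R 4.3.3, limma 3.58.1), with Benjamini-Hochberg adjustment over all tested probes. In place of detection p-values, which the table lacks, a background level was set per array by mirroring the values below the mode of the dim peak and taking its 95% point. Probes above it on 3 or more of 6 arrays were tested. The number of arrays limits the precision. The procedure was tested on simulated data in which all changed probes lay well above background, so the test does not cover dim probes. Its simulated spread was redefined after a first version recovered too few changed probes for its own minimum. A permutation test used scipy 1.17.1.

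Members and lists were chosen with earlier results of these data known. Named are the members, TARDBP, other probes of the member genes, up to 3 passing genes per list and direction by size, a few listed genes whatever their result (ATF4, PPP1R15A, CHAC1, SLC7A5, SLC3A2, HSPA5) and the 3 probes closest to the members' mean profile. Further genes of the lists were named after their values were seen.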

Additional observations from a re-analysis of the deposited data

How the results depend on the processing

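None of the 6 tested members passed an adjusted p of 0.05 in any alternative in which it was tested, 17 for SESN2 and 18 for the other 5, and the lowest adjusted p was 0.0982 (SESN2). Without the filter PSAT1 and SLC7A11 had adjusted p of 0.921 and 0.687. Directions near 0 turned: ATF3 to 0.016 with median scaling over tested probes and to 0.068 in the 4 arrays of the brighter background class, where DDIT3 turned to -0.0041 and PHGDH to 0.0086. Leaving out 1 array at a time moved DDIT3 between 0.028 and 0.18, ATF3 between -0.094 and 0.045, TRIB3 between -0.12 and 0.019, SESN2 between 0.17 and 0.28, ASNS between 0.026 and 0.23 and PHGDH between -0.18 and 0.0089. The replicate block left these differences as they were, ended the call of SRXN1 (adjusted p = 0.0558) and gave 1747 passing probes and 7 passing pathway genes. Deviations from the group mean correlated by 0.106, 0.103 and -0.0025 between arrays numbered 1, 2 and 3. Between arrays of unlike number they correlated by between -0.159 and 0.0639. The labels give the numbers no meaning, so they were not taken as pairs, and these correlations do not decide the question. The other reversals were among values that did not pass. With 1 array left out, ATF4 ranged from -0.099 to 0.011 on its brightest probe and from -0.11 to 0.016 on its dimmest, HSPA5 from -0.15 to 0.0070 and the brighter SLC3A2 probe from -0.033 to 0.069. That SLC3A2 probe also turned to -0.022 with median scaling and to -0.016 in the brighter class. ATF5, PYCR1 and HYOU1 passed in all 18 alternatives, and the second ASNS probe in 8 of 18. The 4 arrays of the brighter class gave 848 passing probes (476 higher, 372 lower) and 3 pathway genes (1 higher, 2 lower), with fewer samples. With the background class as a block 6 pathway genes passed (2 higher, 4 lower), the calls of ALDH18A1 and SRXN1 ending. An adjusted p of 0.01 gave 764 (429 and 335) and 2 pathway genes (1 and 1), stricter by construction. An offset of 16 and no filter each left 5 pathway genes, of which 3 were lower. Leaving out 1 array gave 953 to 1800 passing probes (529 to 942 higher, 424 to 858 lower) and 2 to 7 pathway genes (1 to 3 higher, 1 to 5 lower), lowest without siLuc replicate 2. Where not stated, the cause was not tested. No negative controls or slide positions were at hand for a control-based correction or a slide block. Signal over background limits what can be read for PSAT1, SLC7A11, SESN2, CHAC1, PPP1R15B, the second PYCR1 probe and, in siTARDBP, TARDBP and ATF5.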
